A study of Mus musculus with 14 samples.

Results

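A set of 10 regulators of the epithelial-mesenchymal transition (EMT) were followed in 4T1 mouse breast cancer cells with and without knockdown of TAZ, the transcriptional coactivator encoded by Wwtr1. The genes were taken by symbol, as the transcription factors Snai1, Snai2, Twist1, Zeb1 and Zeb2, the epithelial factors Ovol1, Ovol2 and Grhl2, the splicing regulator Esrp1 and the intermediate filament gene Vim. Of these, 9 were listed among the 13414 genes of the tumour table (Zeb2 was not), 8 among the 11793 genes of the culture table (Zeb1 and Snai2 were not), and 7 in both. 4T1 is a BALB/c line of triple-negative type that forms tumours in the mammary fat pad of BALB/c mice. Both groups carried a lentiviral hairpin induced by doxycycline, either a control (shC) or one against TAZ (shTAZ), and both lines were pools of infected cells. There were 4 shC and 4 shTAZ tumours, taken 6 weeks after cells were placed in female BALB/c mice aged 8 weeks and fed 625 mg of doxycycline per kg of chow, and 3 shC and 3 shTAZ cultures, kept for 48 h in 6 µM doxycycline. These conditions are those of the study's methods, whereas the sample labels give the genotype as WT and list no treatment.

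EMT is the passage of an epithelial cell, held to its neighbours by E-cadherin junctions and filled with keratins, to a motile mesenchymal state rich in vimentin. SNAIL (Snai1), SLUG (Snai2), TWIST1 and the ZEB proteins are the transcription factors best known for driving it, and the SNAIL and ZEB families repress the E-cadherin gene through E-box sequences. OVOL1, OVOL2 and GRHL2 act in the opposite direction and hold the ZEB genes down, while ESRP1 keeps epithelial splice forms of its target mRNAs. TAZ joins TEAD factors on DNA, and in breast cancer cells it has been tied to EMT and to stem-like behaviour.

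The inducible hairpin against TAZ and its control are shown because every comparison rests on them.
shTAZ: gacgggtggaggttcacat
shC: cacacaacatgtaaaccaggga
The 19-base shTAZ sequence is antisense to Wwtr1 mRNA and matched 2 of its transcripts, in coding sequence of exon 3 (GRCm38, chr3:57501788-57501806), whereas the 22-base shC sequence matched no annotated mouse transcript on either strand.

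Promoter sequence from RefSeq (GRCm38.p6) was matched for 5 of the 10 genes, and 2 promoters are shown because Snai1 and Vim were the regulators that differed between tumours and cultures in both lines. The 250 bases before the start of each gene are printed, on the plus strand, with the E-box bound by SNAIL and ZEB proteins in capitals.
Snai1 promoter, chr2:167537945-167538194: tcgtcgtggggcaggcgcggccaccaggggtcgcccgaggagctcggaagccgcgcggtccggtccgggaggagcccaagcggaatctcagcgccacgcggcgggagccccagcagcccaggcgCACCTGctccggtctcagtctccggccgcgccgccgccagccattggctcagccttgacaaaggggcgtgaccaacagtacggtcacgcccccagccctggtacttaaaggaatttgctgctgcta
Vim promoter, chr2:13574061-13574310: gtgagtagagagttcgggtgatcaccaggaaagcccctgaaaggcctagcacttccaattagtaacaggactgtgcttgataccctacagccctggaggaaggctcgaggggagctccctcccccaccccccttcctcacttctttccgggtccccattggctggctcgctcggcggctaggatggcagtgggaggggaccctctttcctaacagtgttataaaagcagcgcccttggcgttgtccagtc
The search was for CAGGTG or its reverse complement CACCTG, in windows that ran from 250 bases before to 50 after each start. The Snai1 window held 1 copy, whose first letter lay 126 bases before the start, and the windows of Vim, Twist1, Ovol2 and Zeb2 held none. Among 32851 promoters of this length, 20.2% held the motif. The TEAD core GGAATG, or CATTCC on the other strand, was found in 1 of the 4 Zeb2 windows, against 14.7% of all promoters. The windows of Snai1, Vim, Twist1 and Ovol2 held none, and the remaining members were not searched.

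Total counts ran from 2282612 to 22364483 in shC tumours, where tumour 1 was by far the deepest, and from 1659736 to 3179767 in shTAZ tumours. They ran from 6820673 to 14815813 in shC cultures and from 2243071 to 7959163 in shTAZ cultures. Levels are given as CPM, counts scaled to the TMM-normalized size of each library. Wwtr1 itself fell in shTAZ cultures, from 31.9 ± 7.82 to 8.21 ± 2.24 CPM (SD, n = 3 each; log2 fold change -2.11, SE 0.32; adjusted p = 0.0352, edgeR quasi-likelihood test with Benjamini-Hochberg adjustment), although in each of the 6 fits that left out 1 culture the adjusted p was above 0.05. In tumours Wwtr1 was at 39.6 ± 14.9 CPM in shC and 19.5 ± 5.23 CPM in shTAZ (SD, n = 4 each; log2 fold change -1.03, SE 0.30), and no shTAZ tumour reached the lowest shC tumour (p = 0.0286 in a two-sided exact permutation test, the lowest possible with 4 against 4), but the adjusted p was 0.923 in edgeR.

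The first question was whether EMT regulators differ between tumours with and without knockdown of TAZ. Of the 9 listed members, 6 passed the filter on low counts (Snai1, Twist1, Vim, Ovol2, Grhl2 and Esrp1), and none was called at an adjusted p under 0.05 in edgeR's quasi-likelihood test, with percent called of 0 among the 9196 genes tested. At an unadjusted p under 0.05 there were 366 genes (3.98%), none of them a member, and DESeq2 called 4 genes in all. The groups of tumours overlapped for all 9 listed members, against 2.39% of all genes tested whose groups did not overlap. In bulk tumour RNA, fewer cells of a type and less RNA per cell cannot be told apart.

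**Figure D1:**
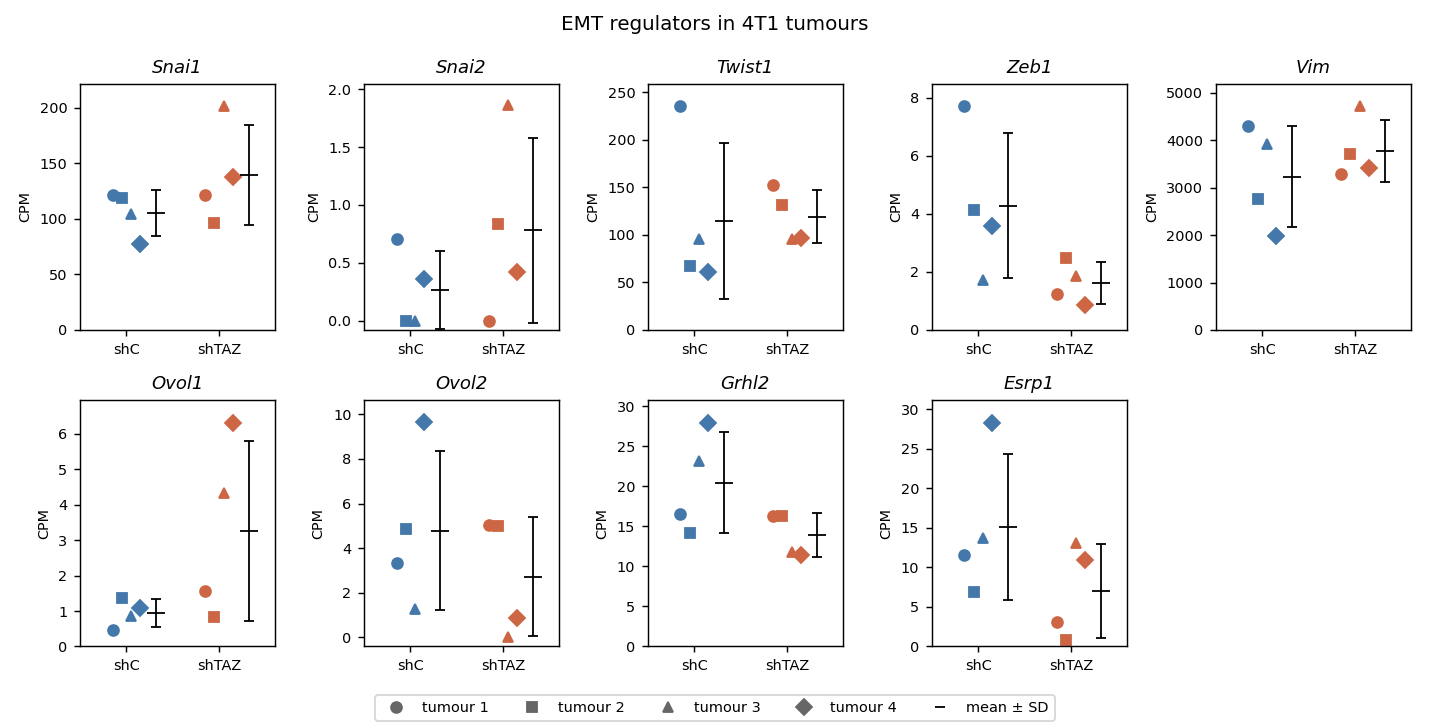
Level of the 9 listed EMT regulators in each tumour, in CPM on linear axes, for 4 shC (blue) and 4 shTAZ (orange) tumours, with marker shapes for tumour numbers and the mean ± SD in black. The groups overlap in every panel, and shTAZ tumours 3 and 4 carry the highest Ovol1 levels (4.35 and 6.32 CPM).

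Among the EMT-driving factors, Snai1 and Twist1 were well covered in tumours. Snai1 was at 122, 119, 104 and 77.0 CPM in shC tumours 1 to 4 and at 121, 96.5, 202 and 138 CPM in shTAZ tumours 1 to 4. The highest values were those of shTAZ tumours 3 and 4, and the other shTAZ tumours lay within the shC range. The log2 fold change was 0.40 (SE 0.23; adjusted p = 0.923, edgeR). It was 0.03 without shTAZ tumours 3 and 4, an unplanned fit added because of their epidermis RNA (described below). As these tumours held the highest Snai1, their removal must lower the value, and nothing is drawn from it. Twist1, a factor of mesoderm and neural crest, was at 236, 67.0, 95.4 and 60.9 CPM in shC tumours and at 153, 132, 95.6 and 96.5 CPM in shTAZ tumours. The deepest library, shC tumour 1, held the highest Twist1 level, and shC tumours 2 and 4 lay below every shTAZ tumour. The level of shC tumour 3 (95.4 CPM) was close to that of the lowest shTAZ tumour, number 3 (95.6 CPM). Their order turned on the scaling. In CPM of the total count, without TMM, shC tumour 3 (97.7) lay above shTAZ tumours 3 (92.8) and 4 (93.8). The Twist1 log2 fold change was 0.04 (SE 0.40; adjusted p = 0.998, edgeR) with all tumours and 0.69 without shC tumour 1.

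Zeb1 and Snai2 were near the limit of detection. Zeb1 had 186, 12, 4 and 10 counts in shC tumours and 4, 6, 3 and 2 counts in shTAZ tumours, which is 7.72, 4.14, 1.71 and 3.58 CPM against 1.25, 2.496, 1.86 and 0.843 CPM. Only shC tumour 3 lay among the shTAZ values, and the mean was 4.29 ± 2.51 CPM in shC and 1.61 ± 0.722 CPM in shTAZ (SD, n = 4 each; two-sided exact permutation p = 0.0857). Zeb1 did not pass the filter for the test across genes. Snai2 had 17, 0, 0 and 1 counts in shC tumours and 0, 2, 3 and 1 counts in shTAZ tumours, so that a difference was not detectable at this depth. A count of 0 allows up to 1.28 CPM in shC tumour 3 and 0.941 CPM in shTAZ tumour 1 (3 counts, counting error only). Zeb2 was not listed for tumours.

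None of the epithelial regulators passed the test in tumours, with fitted values below 0 for Grhl2, Esrp1 and Ovol2 and a higher mean level in shTAZ for Ovol1. All 8 carcinoma markers of the marker list were also lower in shTAZ tumours (median log2 fold change -0.71, 3 of them at an unadjusted p under 0.05, none called in edgeR), and their part in these values was not tested. Grhl2, a grainyhead factor that activates E-cadherin and claudin genes, was at 16.5, 14.2, 23.1 and 27.9 CPM in shC tumours and at 16.3, 16.2, 11.8 and 11.4 CPM in shTAZ tumours. ShTAZ tumours 3 and 4 lay below all shC tumours, and the other shTAZ tumours did not (log2 fold change -0.53, SE 0.28; unadjusted p = 0.0844, adjusted p = 0.923, edgeR). Esrp1 was at 11.6, 6.91, 13.7 and 28.3 CPM in shC tumours and at 3.14, 0.832, 13.04 and 10.95 CPM in shTAZ tumours. Here shTAZ tumours 1 and 2 were the low ones, with 10 and 2 counts, and the log2 fold change was -1.16 (SE 0.67; adjusted p = 0.923, edgeR). In the unplanned fit without shTAZ tumours 3 and 4, the shTAZ tumours of highest Esrp1, it was -2.86, and their removal must lower it. Thus the tumours with the lowest Esrp1 were not those with the lowest Grhl2.

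Ovol2 was at 3.32, 4.84, 1.28 and 9.67 CPM in shC tumours and at 5.02, 4.99, 0 and 0.843 CPM in shTAZ tumours. ShTAZ tumour 3 had no Ovol2 count, which allows up to 1.86 CPM, and shTAZ tumour 4 had 2. The log2 fold change was -0.68 (SE 0.76; adjusted p = 0.932, edgeR). It was 0.070 in the unplanned fit without these tumours, the lowest in Ovol2, whose removal must raise it. Ovol1, its paralog of skin and other epithelia, went the other way in the same tumours, with 0.457, 1.38, 0.855 and 1.07 CPM in shC and 1.57, 0.832, 4.35 and 6.32 CPM in shTAZ (11, 4, 2 and 3 counts against 5, 2, 7 and 15 counts). ShTAZ tumours 3 and 4 stood above all shC tumours, and the remaining shTAZ tumours did not (two-sided exact permutation p = 0.143, n = 4 each). Ovol1 did not pass the filter for tumours alone.

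The tumours with high Ovol1 also held RNA of cornified epidermis. The summed level of the 11 listed epidermis markers of a list of 12 (among them Krt1, Krt10, Lor and Flg) was 3780 CPM in shTAZ tumour 3 and 2074 CPM in shTAZ tumour 4, against 16.7 to 77.4 CPM in the other 6 tumours. All 11 had counts in the shTAZ group, and 2 of them were at 0 throughout the shC group. A control tumour held RNA of another epithelium: 6 urothelium markers summed to 668 CPM in shC tumour 2, against 0 to 9.05 CPM in the other tumours. The part of the epidermis and urothelium markers in the values of the members was not tested. In both lines the library codes of tumours 1 and 2 began with FG and those of tumours 3 and 4 with FM. What this prefix stands for is not given in the sources used here. Within the shTAZ group, a trait of tumours 3 and 4 and a trait of the prefix cannot be told apart.

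Vim, the mesenchymal filament gene, was at 4295, 2754, 3914 and 1984 CPM in shC tumours and at 3280, 3708, 4725 and 3409 CPM in shTAZ tumours. The shTAZ tumours spread less, and all lay within or just above the shC range (log2 fold change 0.22, SE 0.24; adjusted p = 0.930, edgeR). Vim is also made by fibroblasts, macrophages and endothelium. The summed level of 10 macrophage markers was 3943 to 7329 CPM in shC and 6461 to 9013 CPM in shTAZ tumours, that of 9 listed fibroblast markers 1622 to 4518 CPM and 1726 to 4387 CPM, and that of 8 carcinoma markers 3530 to 5661 CPM and 3336 to 4360 CPM. Of the macrophage markers 9 of 10 were higher in shTAZ tumours (median log2 fold change 0.31), and of the 7 fibroblast markers tested all were lower (median -0.24). None of these markers was called, and their part in the Vim values was not tested.

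The wider EMT gene lists showed the same absence of calls in tumours. Of 20 epithelial targets, 18 were tested, and 14 were lower and 4 higher in shTAZ tumours with a median log2 fold change of -0.29, beside -0.0096 over all genes tested. This list shares genes with the carcinoma markers above, among them Cldn7, Krt8, Krt18 and Krt19, so it is not a separate observation. Cldn7, a tight junction claudin, had the smallest p of the list (129 ± 92.8 CPM in shC and 33.6 ± 17.0 CPM in shTAZ, SD, n = 4 each; log2 fold change -1.91, SE 0.52; adjusted p = 0.923, edgeR). The simple-epithelium keratin Krt19 followed with -2.10 (SE 0.68), whereas the abundant Krt8 and Krt18 had log2 fold changes of -0.03 and -0.24. Cdh1, which encodes E-cadherin and was singled out after its values were seen, was at 38.2, 59.4, 80.4 and 201 CPM in shC and at 71.5, 68.2, 68.9 and 85.1 CPM in shTAZ tumours, and the log2 fold change was -0.36 (SE 0.42; edgeR adjusted p = 0.936). One shC tumour, number 4, held the highest Cdh1, Esrp1, Grhl2 and Ovol2 levels of all 8 and the lowest Snai1, Twist1 and Vim levels. Without it the log2 fold changes of shTAZ over shC were -0.67 for Esrp1, -0.35 for Grhl2 and -0.14 for Ovol2. They were 0.27 for Snai1, -0.16 for Twist1 and 0.05 for Vim. As its levels were extremes, its removal must move these values, and nothing is drawn from them.

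Among 16 other epithelial factors, 6 were tested and 5 were lower (median -0.10), with Elf3, an ETS factor of epithelia, at -1.04 (SE 0.57) and Gata3, the luminal mammary factor, at 0.12 (SE 0.16). Among 19 other EMT transcription factors, 13 were tested, with 6 higher and 7 lower (median -0.07). The chromatin factor Hmga2 was at -1.01 (SE 0.45) and the abundant Sox4 at 0.10 (SE 0.21). Of 18 mesenchymal effectors, 15 were tested, with 6 higher and 9 lower (median -0.11). Tagln, of smooth muscle and myofibroblasts, was at -3.37 (SE 1.16), while its shC mean of 854 ± 1505 CPM (SD, n = 4) came beside a summed level of 8 mural markers that reached 5018 CPM in shC tumour 2. Of 11 TGF-beta pathway genes, 10 were tested, with 4 higher and 6 lower (median -0.11), among them the signal transducers Smad2 at -0.84 (SE 0.36) and Smad4 at -0.41 (SE 0.19). None of these genes was called.

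The second question was whether knockdown of TAZ changes EMT regulators in cultured cells. Of the 8 listed members, 7 passed the filter, and none was called at an adjusted p under 0.05 in edgeR, where percent called was 0.0102 of 9828 genes tested, Wwtr1 being the gene called. With the culture number as a block in place of the surrogate variable 6 genes were called, and with neither term none was. Ovol1 was the one member with an unadjusted p under 0.05 (386 genes, 3.93%) and the one whose groups did not overlap, against 5.57% of all genes tested. It passed the filter through the shC cultures, where it was high, so that a lower level in shTAZ was favoured by the filter and this standing is a description.

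**Figure D2:**
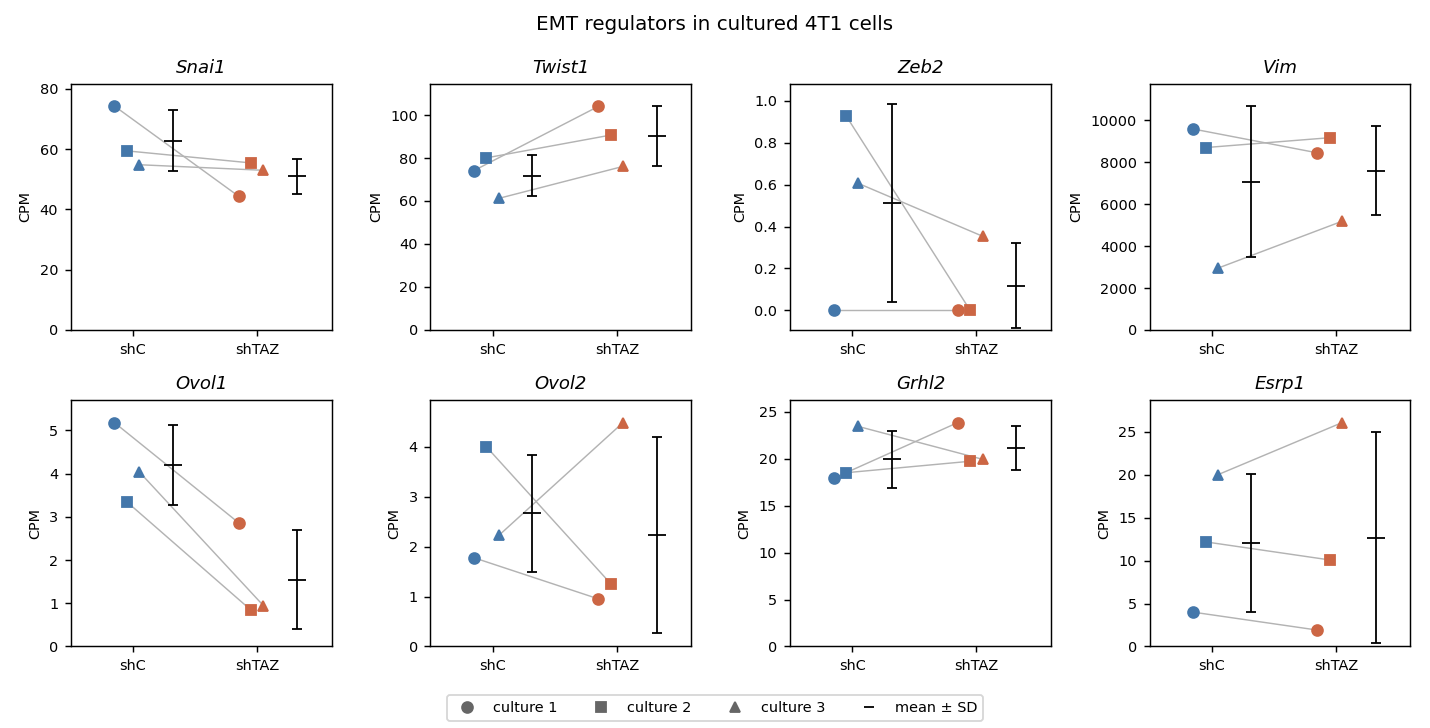
Level of the 8 listed EMT regulators in each culture, in CPM on linear axes, for 3 shC (blue) and 3 shTAZ (orange) cultures, with grey lines joining cultures of one number and the mean ± SD in black. Ovol1 is lower in shTAZ in every pair, while Esrp1 is highest and Vim lowest in both cultures numbered 3.

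Ovol1 was at 5.18, 3.35 and 4.04 CPM in shC cultures 1 to 3 (35, 36 and 60 counts) and at 2.86, 0.840 and 0.944 CPM in shTAZ cultures 1 to 3 (6, 2 and 8 counts). Every shTAZ culture lay below every shC culture, by 3.30-fold in the fit (log2 fold change -1.72, SE 0.69; unadjusted p = 0.0220, adjusted p = 1.00, edgeR), and a two-sided exact permutation test gave p = 0.1, the lowest possible with 3 against 3. The log2 fold change lay between -2.17 and -1.59 when any 1 culture was left out. The counts were few, and the 95% Wilson interval of shTAZ culture 2 ran from 0.227 to 3.02 CPM of its total count, counting error only.

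The other members tested were not called between shC and shTAZ cultures either, which does not show that their levels were equal. Snai1 was at 74.3, 59.4 and 54.8 CPM in shC and at 44.4, 55.4 and 53.0 CPM in shTAZ cultures (log2 fold change -0.31, SE 0.23). It was lower in shTAZ in each of the 3 pairs, by a large margin only in pair 1, and the groups overlapped. Twist1 was at 74.1, 80.1 and 61.2 CPM in shC and at 104, 90.7 and 76.1 CPM in shTAZ cultures (log2 fold change 0.23, SE 0.21). It was higher in shTAZ in each pair, and again the groups overlapped. Grhl2 was at 17.9, 18.5 and 23.4 CPM in shC and at 23.8, 19.7 and 19.9 CPM in shTAZ cultures (log2 fold change 0.10, SE 0.30), with no common direction over the pairs.

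Ovol2 was at 1.78, 4.00 and 2.22 CPM in shC and at 0.954, 1.26 and 4.48 CPM in shTAZ cultures, from 2 to 43 counts a library (log2 fold change -0.11, SE 0.68), and its direction turned on which culture was left out. Zeb2 had 0, 10 and 9 counts in shC and 0, 0 and 3 counts in shTAZ cultures, the shTAZ cultures 1 and 2 being the shallowest libraries. A count of 0 there allows up to 1.43 and 1.26 CPM, above the Zeb2 level of any culture, so a difference was not detectable.

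**Figure D3:**
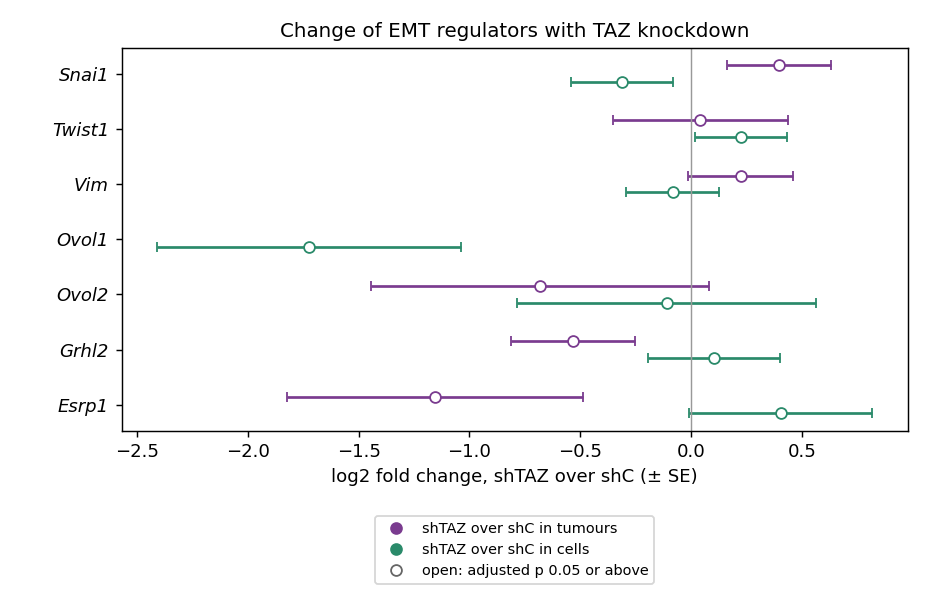
Log2 fold change of shTAZ over shC (± SE) for each EMT regulator tested, in tumours (purple, 4 against 4) and in cultured cells (green, 3 against 3), with open symbols for an adjusted p of 0.05 or above. All symbols are open, and Ovol1 in cells (-1.72) and Esrp1 in tumours (-1.16) lie farthest from 0.

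Esrp1 and Vim varied more between culture numbers than between the hairpins. Esrp1 was at 4.00, 12.2 and 20.001 CPM in shC cultures 1 to 3 and at 1.91, 10.1 and 26.1 CPM in shTAZ cultures 1 to 3. The cultures kept one order in both lines, and the hairpin groups overlapped nearly in full (log2 fold change 0.40, SE 0.41 for shTAZ over shC). Vim was at 9592, 8704 and 2949 CPM in shC and at 8453, 9176 and 5189 CPM in shTAZ cultures. Both cultures numbered 3 were the low ones (log2 fold change -0.08, SE 0.21 for shTAZ over shC).

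A test of the culture number, added after these values were seen, called Esrp1 (adjusted p = 0.000520) and Vim (adjusted p = 0.000937) in edgeR and none of the other 5 members, against 14.2% of the 9828 genes tested. In number 3 over the mean of numbers 1 and 2, Esrp1 was higher (log2 fold change 1.94, SE 0.36; 8.73% of genes called higher) and Vim was lower (-1.18, SE 0.21; 10.1% called lower). Esrp1 kept its call when any 1 culture was left out, and Vim lost it without shC culture 3 (adjusted p = 0.205). Without shC culture 3 the test called 353 genes and without shTAZ culture 3 it called 486, of 1399 with all cultures.

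The higher Esrp1 and lower Vim of the cultures numbered 3 did not come with higher levels of the epithelial targets as a group. Of 19 epithelial targets tested, 1 was called higher and 4 lower in edgeR, with a median log2 fold change of -0.11 beside 0.02 over all genes. Crb3, a polarity protein of the apical membrane, rose (2.03, SE 0.41), whereas Krt8 (-1.39, SE 0.22), Krt18 (-0.72, SE 0.20) and the adhesion molecule Epcam (adjusted p = 0.00764) fell and Cdh1 was at -0.33 (SE 0.21; adjusted p = 0.294). Of 12 mesenchymal effectors tested, 3 were called lower and none higher (median -0.44), with S100a4 at -2.35 (SE 0.25) and the matrix protease Mmp14 at -1.36 (SE 0.23).

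Among 14 other EMT transcription factors tested there, 1 was called higher and 3 lower, including Foxc2 at -1.43 (SE 0.30) and the E protein gene Tcf3 at -0.82 (SE 0.23). Of 9 epithelial factors tested, 1 was called, the RNA-binding protein gene Rbm47 at -1.12 (SE 0.35). Of 11 TGF-beta pathway genes, none was called at an adjusted p under 0.05. Both cultures numbered 3 were the deepest of their line. They also held more epidermis marker RNA (3 of 12 markers listed, summed level 96.4 and 125 CPM against 12.2 to 20.03 CPM in the other 4 cultures) and the lowest summed level of 8 carcinoma markers (3748 and 3924 CPM against 5301 to 9254 CPM). The part of depth and of these markers in the Esrp1 and Vim values was not tested.

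**Figure D4:**
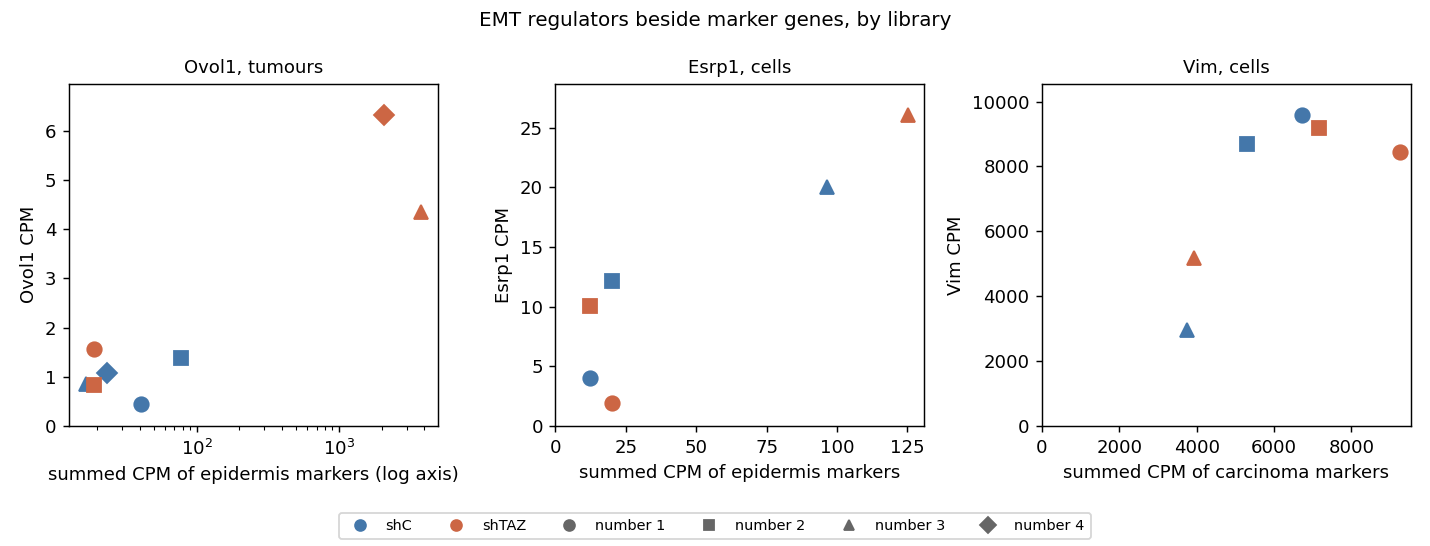
Level of Ovol1 in the 8 tumours (left), and of Esrp1 (middle) and Vim (right) in the 6 cultures, in CPM, against the summed CPM of epidermis markers (left, log axis, and middle) or carcinoma markers (right) in the same library, with blue for shC, orange for shTAZ and marker shapes for numbers. The tumours with 2074 and 3780 CPM of epidermis markers hold the highest Ovol1, and the cultures numbered 3 lie apart in the middle and right panels.

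In the hairpin comparison of cultures the EMT lists held no called gene. Of 19 epithelial targets tested, 11 were higher and 8 lower in shTAZ (median 0.10), with Crb3 at 1.46 (SE 0.47; unadjusted p = 0.00663) and Cdh1 at -0.15 (SE 0.23). Of 12 mesenchymal effectors, 3 were higher and 9 lower (median -0.19), with S100a4 at -0.73 (SE 0.23) and Mmp14 at -0.65 (SE 0.20) in the fit with the surrogate variable. The S100a4 means themselves were close, at 1371 ± 931 CPM in shC and 1350 ± 998 CPM in shTAZ (SD, n = 3 each). Of 14 EMT transcription factors, 3 were higher and 11 lower (median -0.15), and Foxc2 was at -0.56 (SE 0.27). Of 9 epithelial factors, 4 were higher and 5 lower (median -0.0034), and Klf5 was at -0.47 (SE 0.21). Of 11 TGF-beta pathway genes, 5 were higher and 6 lower (median -0.11), and the receptor gene Tgfbr1 was at -0.39 (SE 0.24).

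The third question was how tumours differ from the cultured cells of the same line. One fit over the 9194 shared genes that passed the filter held all 14 libraries and 7 members. Tumours and cultures were deposited as separate tables, so tissue and table cannot be told apart. Smad4, a TGF-beta transducer that most cells express, was at 121 ± 34.6 CPM in shC tumours (SD, n = 4) and 4.10 ± 1.33 CPM in shC cultures (SD, n = 3), and whether both tables were counted on one gene annotation is not given in the sources used here. In shC libraries 3 of 7 members were called in edgeR, against 38.4% of all genes, and in shTAZ libraries 2 of 7, against 30.5%, so that members were called about as often as other genes.

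**Figure D5:**
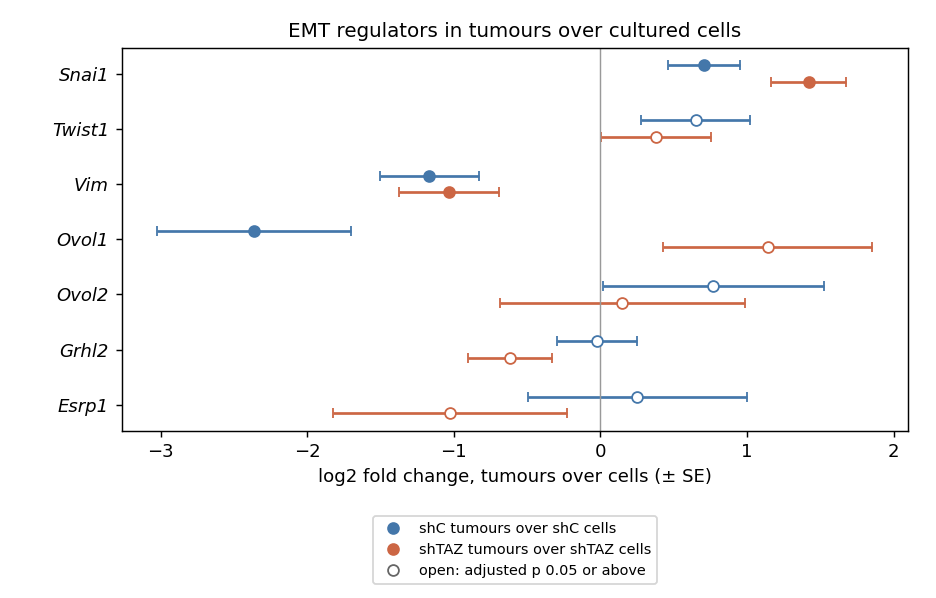
Log2 fold change of tumours over cultured cells (± SE) for 7 EMT regulators, in shC libraries (blue, 4 tumours and 3 cultures) and shTAZ libraries (orange, 4 and 3), with filled symbols for an adjusted p under 0.05. Snai1 lies above 0 and Vim below 0 in both lines, and Ovol1 lies at -2.36 in shC and 1.14 in shTAZ.

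Snai1 was higher in tumours than in cultures in both lines. Its lowest tumour level, 77.0 CPM, lay just above its highest culture level, 74.3 CPM, with CPM scaled within each table. The share of all genes without overlap between tumours and cultures was not computed, so nothing is drawn from this gap. The rise was 1.64-fold in shC (log2 fold change 0.71, SE 0.25; adjusted p = 0.0313) and 2.68-fold in shTAZ (1.42, SE 0.26; adjusted p = 0.000548), both in edgeR. The shC call was lost in the fits that left out shC tumour 1 (adjusted p = 0.0684), 2 (0.0695) or 3 (0.0507) or shC culture 2 (0.0971) or 3 (0.0975), and the shTAZ call was lost in none.

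Vim was lower in tumours, by 2.24-fold in shC (log2 fold change -1.17, SE 0.34; adjusted p = 0.0128) and by 2.05-fold in shTAZ (-1.03, SE 0.34; adjusted p = 0.0302), in edgeR. The shC culture 3, at 2949 CPM, lay within the tumour range. The shC call was lost without shC culture 1 (0.0696) or 2 (0.0580), and the shTAZ call without shTAZ tumour 1 (0.0742), 2 (0.0580) or 4 (0.0730) or shTAZ culture 1 (0.0748) or 2 (0.116), all given as adjusted p. Tumours held far more stroma than cultures, with summed fibroblast markers of 1622 to 4518 CPM against 3.30 to 11.8 CPM and macrophage markers of 3943 to 9013 CPM against 24.1 to 58.8 CPM. The part of stroma in the Snai1 and Vim differences was not tested.

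Ovol1 was lower in shC tumours than in shC cultures, by 5.14-fold (log2 fold change -2.36, SE 0.66; adjusted p = 0.0101, edgeR), and this call held when any 1 library was left out. Ovol1 did not pass the filter in tumours alone. Its highest levels in this fit were those of the shC cultures and of shTAZ tumours 3 and 4, through which it entered. A call of lower in shC tumours than in shC cultures was thus favoured by the filter, as was a value above 0 in shTAZ libraries. In shTAZ libraries the value was 1.14 (SE 0.71; adjusted p = 0.241). The knockdown change in tumours minus that in cultures was 3.50 for Ovol1 (SE 0.98; unadjusted p = 0.00243, adjusted p = 1.00, edgeR), so the difference between tumours and cultures did not pass the test. No gene of 9194 was called in that contrast in edgeR, where 227 (2.47%) had an unadjusted p under 0.05, Ovol1 being the single member among them. As Ovol1 entered the fit through groups that raise this contrast, a value above 0 was favoured by the filter. Its standing here is a description. Snai1 had 0.71 (SE 0.35), Esrp1 -1.28 (SE 1.097), Ovol2 -0.62 (SE 1.12), Grhl2 -0.59 (SE 0.40), Twist1 -0.27 (SE 0.52) and Vim 0.13 (SE 0.48).

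Grhl2 was at -0.02 (SE 0.27) in shC and -0.62 (SE 0.28; adjusted p = 0.111) in shTAZ tumours over cultures, and Twist1 at 0.65 (SE 0.37) and 0.38 (SE 0.37). Esrp1 was at 0.25 (SE 0.75) and -1.03 (SE 0.80), and Ovol2 at 0.77 (SE 0.75) and 0.15 (SE 0.83). None of these passed the test, and the errors of Esrp1 and Ovol2 were the widest of the members.

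The other EMT lists were called in tumours over cultures to unequal extents, beside 1913 genes called higher and 1619 lower of all 9194 in shC (38.4% together) and 1499 higher and 1308 lower in shTAZ (30.5% together). Of 14 mesenchymal effectors tested, 10 were called higher in tumours in each line, and 2 (shC) or 3 (shTAZ) lower, with medians of 2.18 and 2.11 beside -0.0075 and -0.05 over all genes. Col1a1 and Col3a1, the main fibrillar collagens of fibroblasts, led with 10.72 (SE 0.66) and 10.50 (SE 0.71) in shC, and fibronectin Fn1 was at 2.41 (SE 0.30) in shC and 2.07 (SE 0.29) in shTAZ. Among 11 TGF-beta pathway genes, 5 were called higher and 1 lower in each line, with Tgfb1 at 1.92 (SE 0.30) and 2.00 (SE 0.30) and Tgfb3 at 2.07 (SE 0.26) and 2.01 (SE 0.26). Cdh1 was lower in tumours in both lines (-1.61, SE 0.40; adjusted p = 0.00461 in shC and -1.86, SE 0.40; adjusted p = 0.00258 in shTAZ, edgeR).

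Of 18 epithelial targets, 5 were called higher and 3 lower in shC tumours, and none higher and 5 lower in shTAZ tumours, both near the 38.4% and 30.5% of all genes. Pard6b, a polarity gene, fell in both lines (-2.69, SE 0.34, and -3.38, SE 0.36), and Epcam rose in shC (1.97, SE 0.53; adjusted p = 0.00834) and was at 0.76 (SE 0.52; adjusted p = 0.289) in shTAZ. Of 13 other EMT transcription factors, 2 were called higher in each line and 1 (shC) or 2 (shTAZ) lower, below the shares of all genes in shC and near them in shTAZ. Sox4, which like Smad4 was far lower in every culture, was called higher in tumours (4.84, SE 0.29, and 5.46, SE 0.31) and the AP-1 gene Fosl1 lower (-2.82, SE 0.32, and -2.17, SE 0.32). Of 9 epithelial factors, the one called was Klf5, lower in both lines (-2.19, SE 0.36, and -1.70, SE 0.35).

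Over the 8 tumours, levels of the members were compared with each other on the log2(CPM + 1) scale. Of the members, 6 had a mean count of at least 20, and the 15 pairs among Snai1, Twist1, Zeb1, Grhl2, Esrp1 and Vim were tested by exact permutation of the pairings. Zeb1 reached that mean through the 186 counts of shC tumour 1, so its relations rest on few counts elsewhere. Ovol2 fell short of that mean, and its pairs were not tested, although its Pearson r with Snai1 was -0.835. Of the 15 pairs tested, Snai1 and Grhl2 had the strongest relation, an inverse one, with Pearson r = -0.829 (exact permutation p = 0.0108, adjusted over the 15 pairs 0.162). Their Spearman rho was -0.69 (exact permutation p = 0.0694, adjusted 0.729). Without the 2 tumours farthest from the Snai1 median r was -0.69, and after the mean of each hairpin group was removed it was -0.77. None of the 15 pairs had an adjusted p under 0.05. No separate r was computed for the 4 tumours of one group or one label prefix.

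The genes whose levels over the 8 tumours were most like those of a member, by Pearson r on the same scale among all genes tested, were Hmg20b (0.93), Pi4ka (0.93) and Slc31a1 (0.93) for Snai1, and Fnbp4 (0.98), Vdac2 (0.95) and Grk5 (0.94) for Twist1. They were Rab11fip2 (0.95), Eya2 (0.94) and Bend5 (0.93) for Grhl2, Fundc1 (0.96), Ankrd39 (0.96) and Zfp821 (0.94) for Esrp1, and Pid1 (0.95), Hpse (0.93) and Pdcd2l (0.93) for Vim. For Zeb1 they were Arhgef18 (0.94), Gpkow (0.93) and Stx5a (0.93), again resting on few counts. These values are a description over 8 libraries that share depth and tissue makeup, and were picked as the highest of 9196 genes.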

How the data were processed

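The authors prepared 3′ libraries with a bulk form of MARS-seq, trimmed reads with cutadapt, mapped them to GRCm38 (mm10) with STAR and counted reads per gene with HTSeq, per the labels and the study's methods. The deposited raw count of each gene in 14 libraries was used. The other deposited columns of single libraries, 34 over all libraries (normalized, log-scale and batch-corrected values), were not used. The authors' fold changes and p-values were not used either. Members and lists were chosen with earlier results of these data known.

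Counts were analysed in R 4.3.3 with edgeR 4.0.16. Genes passed filterByExpr, libraries were scaled by TMM, and groups were compared by the quasi-likelihood F test with Benjamini-Hochberg adjustment over all genes tested (threshold 0.05). Cells were fitted with 1 surrogate variable (svaseq, sva 3.50.0), because the study corrected its culture data with sva. The raw counts used here are from before that correction. Tumours and cells together were fitted over shared symbols in 4 groups. Each SE was derived as the absolute log2 fold change over the root of its F statistic. Single members were compared by exact permutation tests on CPM. The steps were tested on simulated data. Alternatives were DESeq2 1.42.0, RLE size factors, other filters (none, or at least 10 counts in every library), surrogate variables, a replicate block and leaving out each library.

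All 10 members were named, Wwtr1 as a check, and of each EMT list the 2 genes of smallest p and the 2 of highest CPM per comparison, of which the text gives a selection. Cdh1 and Epcam were added after their values were seen. For likeness, the 3 genes of highest r per member with a mean count of at least 20 were taken.

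Groups and numbers come from the sample titles. Nothing says that cultures were grown apart, so p-values measure the spread between these samples. Cultures with one number share a label prefix and deviated together from their group means (r over genes of 0.29, 0.17 and 0.57, each over 0.1). This meets the rule for pairing, so the fit with the number as a block was run as an alternative. Unlike numbers also passed 0.1, at 0.20 for shC 1 with shTAZ 2 and 0.12 for shC 2 with shTAZ 1. The values set number 3 apart and do not show that numbers 1 and 2 are pairs. The main fits and the exact tests hold no block. Tumour numbers did not meet that rule (0.21, 0.13, 0.31 and -0.01).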

Additional observations from a re-analysis of the deposited data

How the results depend on the processing

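Of 784 alternatives, 717 kept direction and side of the threshold (counts within 1.5 times). The number of genes called between shC and shTAZ tumours was 0 in edgeR and 4 in DESeq2. Between cultures it was 1, and it was 5 with DESeq2, 3 with genes of low counts kept, 4 with 10 counts required in every library, 6 with the replicate block, 0 without the surrogate variable and 0 to 1 with 1 culture left out. For shTAZ tumours over shTAZ cells it was 2807, and 1849 with at least 10 counts in every library. For the culture number it ran from 353 to 1803 with 1 culture left out. The causes of these changes were not tested.

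With the replicate block in cells, pairing cultures by number, Esrp1 turned to -0.11 and Vim to 0.23 (log2 fold change), and no member's call changed. Vim was also at 0.0036 with at least 10 counts in every library and at 0.10 without the surrogate variable. Ovol2 in tumours turned to 0.070 in the unplanned fit without shTAZ tumours 3 and 4, the tumours of lowest Ovol2. In tumours the block gave no call, and the numbers did not pair them.

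With 1 library left out, the log2 fold change of shTAZ over shC ran from -0.16 to 0.69 for Twist1 in tumours, and in cells from -1.15 to 0.45 for Ovol2 and from -0.35 to 0.061 for Vim. For tumours over cells it ran from -0.23 to 0.84 (Esrp1) and -0.21 to 0.12 (Grhl2) in shC, and from -1.50 to 0.12 (Esrp1) and -0.32 to 1.34 (Ovol2) in shTAZ. For the change in tumours minus that in cells it ran from -1.09 to 0.57 (Ovol2), -0.47 to 0.37 (Twist1) and -0.13 to 0.50 (Vim). Depth limited Zeb1, Zeb2, Snai2, Ovol1 and Ovol2, which had at most 15 counts in every shTAZ tumour or culture, apart from Ovol2 in shTAZ tumour 1 and shTAZ culture 3.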
